A study of Drosophila melanogaster with 30 samples.

Results

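The genes described here encode the glutathione S-transferases (GST) and the UDP-glycosyltransferases (UGT) of Drosophila melanogaster, measured by RNA-seq in brains of males. They were taken by name, as every gene of the count table whose symbol begins with Gst and a class letter or with Ugt and a number. This gave 70 of 17895 genes, 35 of each enzyme type. The GST genes comprised 11 of the delta class (GstD), 14 of epsilon (GstE), 3 of omega (GstO), 1 of sigma (GstS1), 4 of theta (GstT) and 2 of zeta (GstZ).

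These enzymes carry out the conjugation step of detoxification. GSTs join glutathione to reactive or fat-soluble molecules, among them products of lipid oxidation, plant toxins and insecticides, and UGTs transfer a sugar from a UDP-sugar to hormones, pigments, odorants and toxins, which makes them water-soluble and ready for export. In insects both families have expanded in gene clusters, their transcription can be raised by the Nrf2 homologue CncC, and glial cells that form the blood-brain barrier carry conjugating enzymes together with the pumps that move xenobiotics out of the brain.

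The study compared 10 groups, which combined 5 genotypes with group housing (GH) or single housing (SH). The wild type was Canton-S (CS). The Or47b mutant was labelled w+/Y; Or47b2/3;+/+ and the Or67d mutant w+/Y; +/+; Or67dGAL4/GAL4, each lacking an odorant receptor for fly pheromones. The fru mutant was labelled w+/Y; +/+; fruLexA/4-40 and the dsx mutant w-/Y; +/+; dsxf00683-d07058/f01649-d09625, each with a pair of different alleles of a transcription factor gene of the sex determination pathway. Each group had 3 libraries, and each library was made from 30 pooled male brains. Age and the time spent in each housing are not given in the sources used here. P-values therefore measure the spread between pools of brains. Each mutant was compared with CS as a single line, and the dsx mutant alone was labelled w-, so the mutation and the rest of the line's genome cannot be told apart.

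Library totals ranged from 37612941 to 120862312 estimated counts, with a median of 48.3 M, and mitochondrially encoded genes took 2.49% to 14% of counts. The targeted genes went with the labels: Or67d had 0 counts in its mutant against a mean of 0.323 CPM (counts relative to the library's gene total) in CS GH, fru had a mean of 28.8 CPM in the GH mutant against 179 in CS GH, and dsx stood at 9.4 against 13.5. Or67d was also low in the dsx mutant, with 8 counts in each dsx group against 42 in CS GH and 48 in CS SH, and the dsx level is a sum over the whole gene, so it does not check the deleted part. Or47b had at most 5 counts over the 3 libraries of any group, so brain RNA could not check that label. The barrier-glia gene moody was present in every library, at 55.4 to 89.4 CPM. Traces of other tissues varied, with the summed level of 6 photoreceptor genes between 301 and 2148 CPM. Summed over 8 fat body genes, fru SH libraries ranged from 84 to 3845 CPM, while libraries of the other groups reached at most 1477 CPM. A deposited table marks 6 libraries as AC and 24 as notAC with no key: the AC libraries are replicate 3 of CS GH and of each Or47b and fru group, and replicate 2 of CS SH. The library CS SH replicate 2 stood apart from the rest, with 55.7 CPM summed over 6 antennal genes against 2.52 to 8.57 in the other libraries.

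A few genes made up most of the conjugating-enzyme RNA of the brain. Levels between genes are given per length, as CPM per kilobase of annotated exon averaged over the 30 libraries. GstD1, a delta-class enzyme induced by oxidative stress, was highest at 230 CPM per kb, with libraries between 125 and 398. Ugt35B1 followed at 150 CPM per kb, with libraries between 72 and 220, and these 2 genes carried 34.5% of the summed level of all 70. Next came GstD9 at 96.5, GstE12 at 94.8, GstE1 at 92.3 and GstE2 at 91.3 CPM per kb, and the ranges of these 4 genes overlapped widely. GstE6 at 49.3, GstS1 at 27.5, GstD3 at 26.4 and Ugt49B1 at 20.9 CPM per kb completed the first 10, which held 79.7% of the summed level. GstS1 is the sigma-class enzyme, known for removing the lipid oxidation product 4-hydroxynonenal.

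The remaining classes were led by GstO2 at 17.8, GstT1 at 17.5 and GstZ2 at 10.4 CPM per kb. Zeta-class enzymes act in tyrosine breakdown, and omega-class enzymes reduce oxidised ascorbate. Among the other UGT families the highest genes were Ugt37D1 at 13.6, Ugt316A1 at 9.6, Ugt36D1 at 7.16 and Ugt301D1 at 7.15 CPM per kb. Then came Ugt302C1 at 6.73, Ugt317A1 at 4.69 and Ugt50B3 at 0.206 CPM per kb. Ugt303A1 at 0.142, Ugt305A1 at 0.0652 and Ugt304A1 at 0.0482 CPM per kb were the highest genes of their families and lay near the limit of detection. Of the 70 genes, 23 averaged at least 10 CPM and 31 averaged under 1 CPM.

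**Figure D1:**
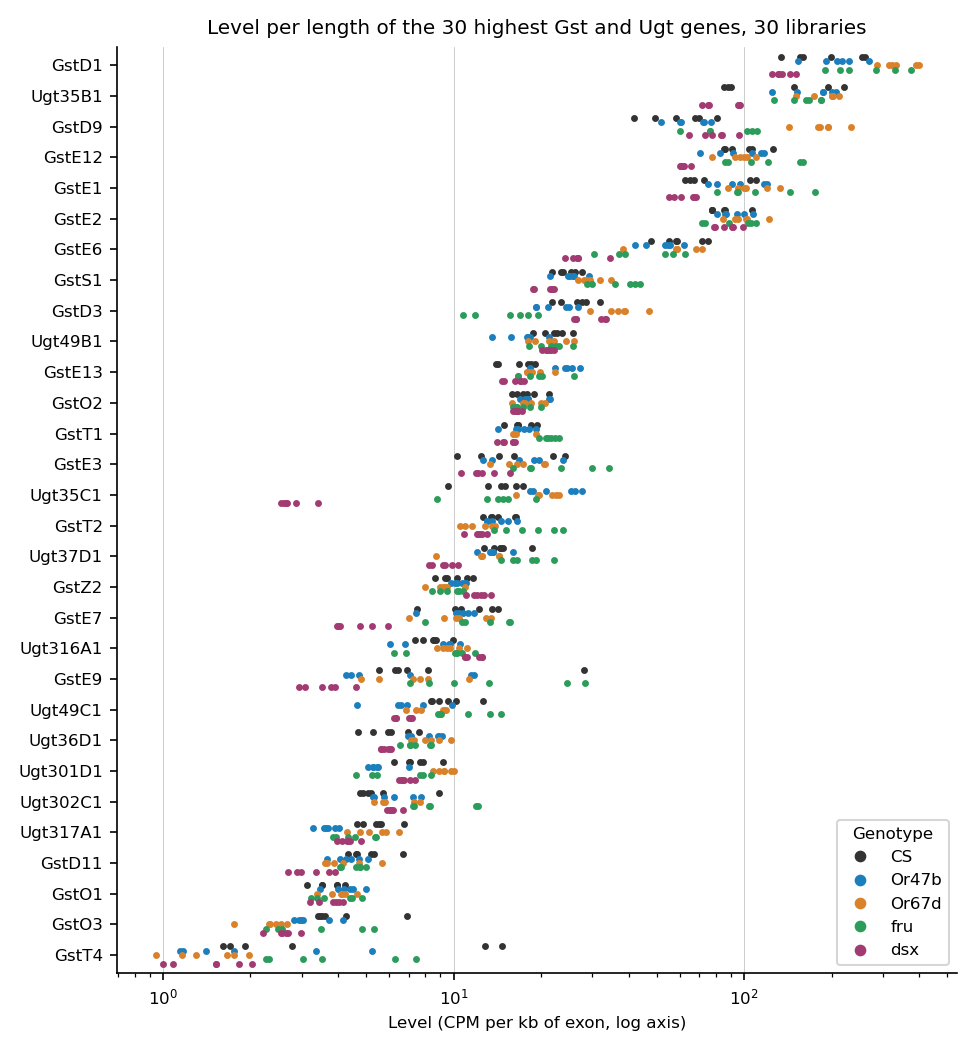
Level per length of the 30 highest genes: CPM per kb of exon on a log axis, 1 point per library, coloured by genotype. GstD1 and Ugt35B1 lead at means of 230 and 150 CPM per kb, and the dsx libraries of Ugt35C1 stand apart to the left of all others.

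Of the 70 genes, 54 had enough counts to be tested, 32 GST and 22 UGT. The 16 others were GstD4, GstD6, GstD7, Ugt304A1, Ugt36F1, Ugt37A1, Ugt37A2, Ugt37C1, Ugt37C2, Ugt37E1, Ugt35D1, Ugt303B1, Ugt303B2, Ugt303B3, Ugt49B2 and Ugt307A1, none above 0.243 CPM in any library. Just outside the filter lay Ugt304A1 with 128 counts over 30 libraries, and just inside lay Ugt35E1 with 164. A gene was called changed at a Benjamini-Hochberg adjusted p under 0.05 in edgeR's quasi-likelihood test, adjusted over the 11269 genes tested in each comparison. All changes below are log2 fold changes ± SE from that fit, in which each gene's value is relative to the library's total RNA, so fewer cells of a type and less RNA per cell cannot be told apart. In 14 comparisons, 47 of the 54 genes were called at least once. The genes never called were GstE2, GstO2, GstO1, GstE4, Ugt303A1, GstE10 and Ugt305A1, of which GstE2 at a mean of 81.2 CPM and GstO2 at 31.1 CPM were well expressed.

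Most of the genes lie in clusters. The 11 GstD genes span chromosome arm 3R from 12364776 to 12385624, 10 GstE genes span 2R from 18396638 to 18409835, and 9 Ugt genes (3 of the Ugt302 family, 4 of Ugt35, Ugt304A1 and Ugt303A1) span 3R from 11151026 to 11177910 (build BDGP6). Ugt35C1 lies a little before that group, at 11126597 to 11128328. The Ugt group is 3.18 Mb from dsx and 7.24 Mb from fru on the same arm, and the GstD group is 4.4 Mb and 6.03 Mb away.

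Single housing of wild-type males was accompanied by higher levels of 6 of the 54 genes, and 0 were lower. By adjusted p, Ugt35 genes that are neighbours on 3R came first: Ugt35B1 rose 2.12-fold, Ugt35E2 2.09-fold and Ugt35A1 1.72-fold. The largest fold was that of GstD2, a low gene, at 3.44-fold, while its neighbour GstD1 rose 1.58-fold and Ugt36D1 1.3-fold. This was 11.1% of the tested genes, against 1.86% of all genes called in either direction, 0.95% higher and 0.914% lower. Over all 54, 46 had a positive change and the median was 0.33, against 0.00 over all genes.

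Ugt35B1 stood at 142, 151 and 147 CPM in the 3 GH libraries and at 325, 247 and 367 CPM in the 3 SH libraries. Every SH library was above every GH library, and the change was 1.09 ± 0.12 (adjusted p = 2.3e-05). Ugt35E2, whose 3' neighbour is Ugt35E1, measured 1.27, 1.58 and 1.42 CPM in GH and 2.54, 3.24 and 3.18 in SH, a change of 1.06 ± 0.18 (adjusted p = 0.0025) with no overlap. For Ugt35A1 the levels were 2.67, 3.62 and 3.47 CPM in GH and 4.9, 6.5 and 5.51 in SH, again without overlap (0.78 ± 0.16, adjusted p = 0.011).

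GstD1 measured 113, 131 and 134 CPM in GH and 168, 219 and 214 CPM in SH (0.66 ± 0.16, adjusted p = 0.0309). GstD2 measured 0.168, 0.217 and 0.217 CPM in GH and 0.538, 1.16 and 0.529 in SH (1.78 ± 0.38, adjusted p = 0.0134), from 7 to 54 counts per library. In neither gene did the groups overlap, and the highest SH value of each belonged to the AC library CS SH replicate 2. Ugt36D1 was at 10.7, 12 and 13.5 CPM in GH and 15.9, 17.3 and 13.8 in SH (0.37 ± 0.10, adjusted p = 0.0446), with the groups just apart. By class, 4 of 22 UGT genes and 2 of 32 GST genes were called, with 3 of 5 in the Ugt35 family and 0 of 14 in GstE. In GstE edgeR gave 4 genes at an unadjusted p under 0.05, against 2087 of all 11269 genes. The level summed over all 70 genes was 1026 ± 51.6 CPM in GH and 1418 ± 114 CPM in SH (SD, n = 3 each).

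The calls other than those of Ugt35B1 and Ugt35E2 depended on single libraries. Leaving out GH replicate 1 or SH replicate 2 gave 2 calls, leaving out GH replicate 3 gave 3, and leaving out SH replicate 1 gave 9. A fit of the 6 CS libraries alone, in which 46 of the genes passed the filter, called 0 by edgeR. It had 19 of them at an unadjusted p under 0.05. Over all 10306 genes of that fit, 17 (0.165%) were called and 1593 had an unadjusted p under 0.05. Ugt35B1 was at 1.09 there, with an adjusted p of 0.0509. DESeq2 on all libraries called 15, against 5.56% of all genes. A fit of the notAC libraries called Ugt35B1 only, against 0.56% of all genes. Other measures moved with housing in CS. The mitochondrial share was 4.37% to 10.1% in GH and 2.95% to 4.53% in SH. With it as a covariate (a choice made after seeing the data) 3 genes stayed called, against 0.621% of all genes: Ugt35B1, Ugt35E2 and GstD2. Summed neuronal markers were 7318 to 8852 CPM in GH and 6216 to 6815 in SH, summed haemocyte markers 241 to 270 and 287 to 334, and summed barrier-glia markers 391 to 438 and 404 to 523. Summed fat body markers were 66.1 to 135 CPM in GH and 126 to 692 in SH, and summed photoreceptor markers 337 to 970 and 344 to 2101, both with overlap. Of 7 barrier-glia markers only Tret1-1 was called (0.47, adjusted p = 0.0478), and the part of cell composition in these changes was not tested.

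**Figure D2:**
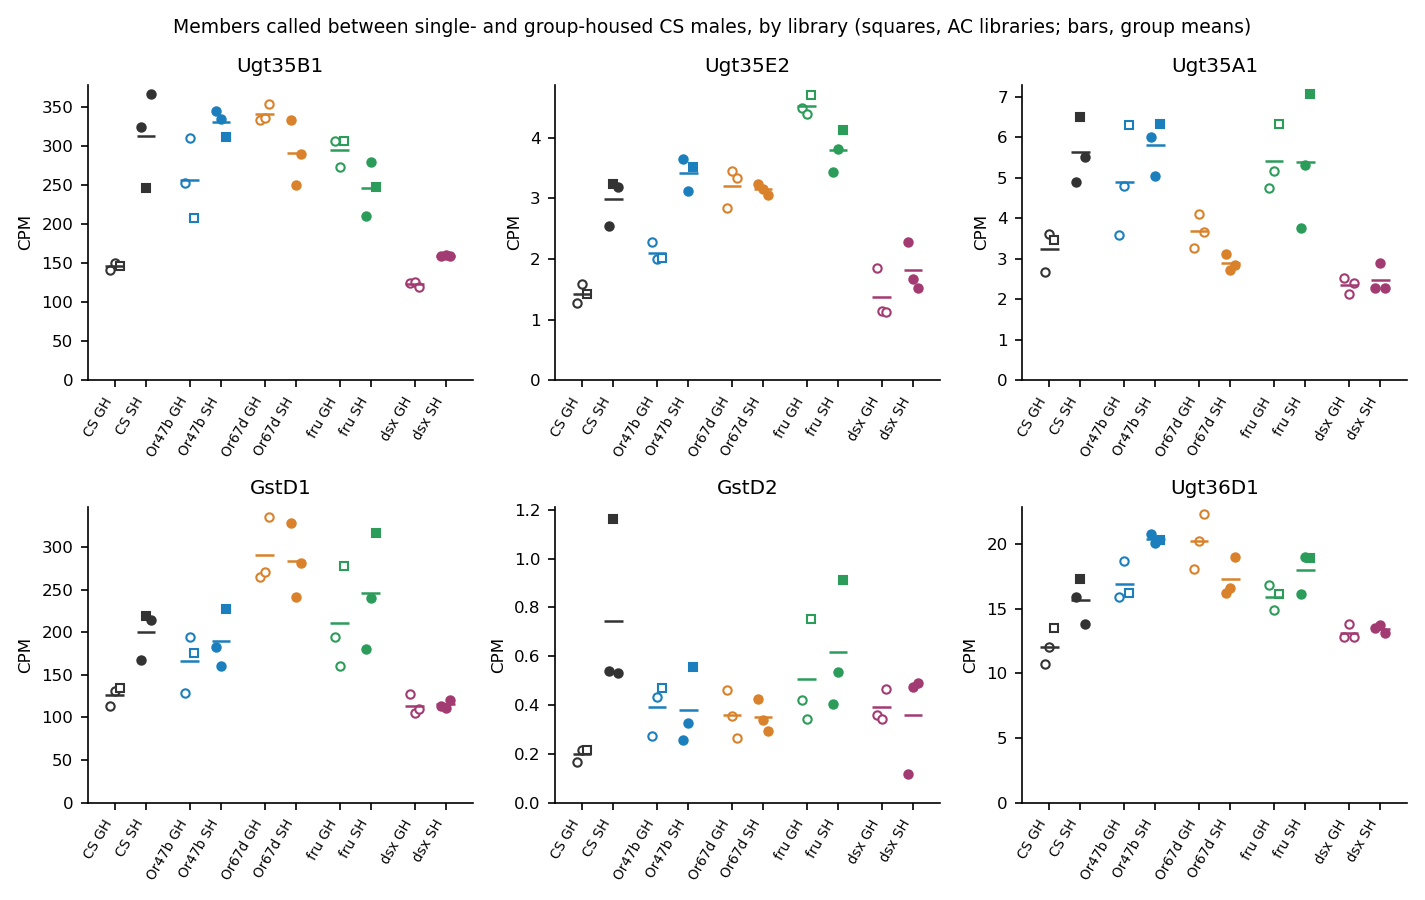
Levels in CPM (axes from 0) of the 6 genes called between single- and group-housed CS males, in all 30 libraries; open symbols are GH, filled symbols SH, squares AC libraries, and horizontal bars group means. Ugt35B1 rises from 142 to 151 CPM in CS GH to 247 to 367 CPM in CS SH, while the Or67d and fru groups are at 211 CPM or more in either housing.

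In the mutants no housing change of these genes passed the test. edgeR called 0 of 54 genes in each line, against 0.213% of all genes in Or47b, 0.0266% in Or67d, 0.169% in fru and 0.0177% in dsx. At an unadjusted p under 0.05 edgeR had 6, 6, 5 and 5 genes in Or47b, Or67d, fru and dsx. Of all 11269 genes, 484, 340, 1186 and 382 were under it in turn. DESeq2 called 1, 0, 1 and 0, against 0.364%, 0.16%, 0.728% and 0.231% of all genes. Ugt35B1 was at 253, 311 and 208 CPM in Or47b GH and 345, 335 and 312 in Or47b SH, where the SH libraries were just above the others (0.37 ± 0.12, adjusted p = 0.579). In Or67d it was at 334, 337 and 354 CPM in GH and 334, 251 and 290 in SH, and in fru at 307, 273 and 307 in GH and 211, 280 and 248 in SH. Those groups overlapped, with changes of -0.23 ± 0.12 and -0.27 ± 0.12. In dsx it was at 125, 126 and 120 CPM in GH and 160, 161 and 159 in SH, without overlap (0.37 ± 0.12, adjusted p = 0.996).

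The difference between a mutant's housing change and that of CS was tested as an interaction. It was called for Ugt35B1 in Or67d (-1.31 ± 0.17, adjusted p = 0.000597) and in fru (-1.35 ± 0.17, adjusted p = 0.000242), so its response to single housing was lower in these lines than in CS. Ugt35A1 was called in Or67d (-1.13 ± 0.23, adjusted p = 0.0428) and Ugt35E2 in fru (-1.32 ± 0.25, adjusted p = 0.0175). These are 2 of 54 genes in each line, against 0.177% of all genes in Or67d and 0.222% in fru. Ugt35A1 measured 3.26, 4.1 and 3.67 CPM in Or67d GH and 3.11, 2.73 and 2.84 in Or67d SH, all below. Ugt35E2 measured 4.49, 4.4 and 4.7 CPM in fru GH and 3.44, 3.81 and 4.13 in fru SH, also all below. In Or47b and dsx the interaction was called for 0 of 54 genes, against 0.0177% and 0.00887% of all genes. At an unadjusted p under 0.05 edgeR had 10 and 15 genes, against 935 and 1506 of all 11269 genes. DESeq2 called 1 gene in each line, against 0.186% and 0.905% of all genes. In edgeR the Ugt35B1 interactions were -0.72 ± 0.17 in both lines (adjusted p = 0.304 and 0.141).

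The Ugt35B1 call in Or67d held in every alternative tried, and that in fru in all but the fit of its 12 libraries alone (adjusted p = 0.0639). The Ugt35A1 call ended when any of 9 of the 12 libraries was left out (adjusted p up to 0.137), and the Ugt35E2 call ended without CS GH replicate 1, CS SH replicate 2 or 3, or fru SH replicate 1 (adjusted p up to 0.0829).

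Averaged over the 5 genotypes, 3 of 54 genes were higher in single housing, against 1.28% of all genes called, 0.559% higher and 0.719% lower. They were Ugt37B1 (0.92 ± 0.16, adjusted p = 0.00239), Ugt35B1 (0.27 ± 0.05, adjusted p = 0.0103) and Ugt35E2 (0.38 ± 0.08, adjusted p = 0.0117). Ugt37B1 is a low gene: it measured 0.16, 0.191 and 0.113 CPM in dsx GH and 0.492, 0.475 and 0.447 in dsx SH, and in CS it measured 0.313, 0.303 and 0.53 (GH) against 0.6, 2.34 and 0.566 (SH). In these lines the SH libraries were all above the GH ones, and the highest was the AC library CS SH replicate 2. In Or47b, Or67d and fru the Ugt37B1 groups overlapped, in fru at 0.457 to 1.55 CPM (GH) and 0.497 to 1.68 (SH). Without the term for AC the Ugt37B1 call ended. The averages of the other genes also cover unlike lines: mean Ugt35B1 was lower in single housing in Or67d and fru, and mean Ugt35E2 in fru.

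Among pathway genes that feed or follow conjugation, few moved with housing. In CS, Idh, an NADPH-producing isocitrate dehydrogenase, was the only one called of 9 genes for glutathione synthesis and NADPH supply (0.51 ± 0.10, adjusted p = 0.00725). None of 4 regulators (cnc, Keap1, maf-S, Hr96), 7 UDP-sugar genes, 5 export pumps or 9 antioxidant genes was called there. In fru, the peroxiredoxin genes Prx2540-2 (1.52, adjusted p = 0.00192) and Prx2540-1 (0.99, adjusted p = 0.00942) were higher in single housing, and both were also called on average over genotypes (0.71 and 0.58), together with the pump gene Mdr49 (0.20, adjusted p = 0.0444). Summed fat body markers were 21.6 to 123 CPM in fru GH and 84 to 3845 in fru SH, and their part in these changes was not tested.

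Brains of the Or47b mutant differed from CS in 13 of the 54 genes, 7 higher and 6 lower, and 10 of the 13 were UGT genes. This was 24.1% of the genes tested, against 13.4% of all genes, 5.51% higher and 7.92% lower. Ugt35C1, also named Ugt86Dd and known for nicotine resistance, had its highest levels in single-housed Or47b males. It measured 16, 25.1, 21.9, 27.3, 29 and 24.4 CPM in the 6 CS libraries and 30.6, 34.8, 31.4, 43.8, 42.5 and 46.3 in the 6 Or47b libraries, all above CS (0.67 ± 0.12, adjusted p = 0.000499).

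GstE13 was at 14.9 to 20.2 CPM in CS and 19.5 to 28.8 in Or47b (0.50 ± 0.08, adjusted p = 0.000156), so the groups met at the edge. Its exons overlap CG18659 on the other strand, and since the strand of counting is not stated, reads of the pair cannot be told apart. The other genes that were higher were Ugt36D1 (0.44 ± 0.07), Ugt35B1 (0.44 ± 0.09), Ugt37B1 (1.21 ± 0.25), Ugt50B3 (0.93 ± 0.25) and Ugt35E2 (0.38 ± 0.13), with adjusted p from 8.11e-05 to 0.0472. The lower genes were led by Ugt317A1, at 8.69 to 12.6 CPM in CS and 6.12 to 7.53 in Or47b, all below CS (-0.56 ± 0.10, adjusted p = 0.000552). The neighbours Ugt49B1 (-0.35 ± 0.07) and Ugt49C1 (-0.48 ± 0.10) on 2R both fell, as did Ugt301D1 (-0.42 ± 0.09), GstT4 (-1.01 ± 0.24) and GstE5 (-1.43 ± 0.46), with adjusted p from 0.00204 to 0.0404. Exons of Ugt49B1 overlap CG44245 on the other strand. No GstD gene of 8 was called by edgeR, with 1 at an unadjusted p under 0.05, against 3180 of all 11269 genes.

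Ugt35E2 and GstE5 lost their calls when any of 11 and 10 of the 12 libraries was left out, and Ugt50B3 without CS SH replicate 3 (adjusted p = 0.0501). Without the AC term 7 of the genes were called, against 6.36% of all genes. The GstT4 call ended without that term (adjusted p = 0.145) and in the notAC libraries (-0.54, adjusted p = 0.191). Of the pathway lists, Zw (-0.73) and Pgd (-0.48), which make NADPH in the pentose phosphate pathway, were lower, as were the catalase gene Cat (-0.40), Prx2540-2 (-0.68) and Mdr49 (-0.43), while Sod3 (0.32) and PHGPx (0.24) were higher. No barrier-glia marker of 7, regulator of 4 or UDP-sugar gene of 7 was called. Markers of other tissues did differ: 4 of 5 muscle markers were lower (Mhc at -2.12), and so were the fat body markers Yp1 (-4.40) and to (-2.75). Their part in the changes was not tested.

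In the Or67d mutant 15 of 54 genes differed from CS, 13 of them higher, and the delta class stood out by size. This was 27.8% of the genes tested, against 11.4% of all genes, 5.75% higher and 5.69% lower. GstD9 was 3.2-fold higher, its neighbour GstD10 3.89-fold, GstD1 1.96-fold and GstD3 1.5-fold, so 4 of the 8 tested genes of the GstD cluster rose and 0 fell. GstD10, GstD9 and GstD1 follow each other on the minus strand of 3R with 427 and 252 bases between them.

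GstD9 measured 38.8, 45.7 and 32.9 CPM in group-housed CS and 53.1, 54.9 and 63.2 in single-housed CS, against 152, 143 and 183 in Or67d GH and 153, 112 and 141 in Or67d SH. All 6 mutant libraries were above all 6 CS libraries (1.68 ± 0.13, adjusted p = 8.47e-10), and also above the Or47b, fru and dsx libraries, which reached at most 60.5, 87 and 75.2 CPM. GstD1 was at 113 to 219 CPM in CS and at 265, 271, 336, 329, 241 and 281 in Or67d, again without overlap (0.97 ± 0.12, adjusted p = 1.54e-06). GstD10 was at 0.0962 to 0.644 CPM in CS and 0.608 to 0.957 in Or67d, with 1 CS library, the AC library CS SH replicate 2, inside the mutant range (1.96 ± 0.36, adjusted p = 0.000428). GstD3 was at 16.3 to 23.7 CPM in CS and 22 to 35.2 in Or67d, with overlap at the edge (0.59 ± 0.09, adjusted p = 2.68e-05).

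Beyond the delta class, GstE1 (0.57 ± 0.12) and GstS1 (0.36 ± 0.08) were higher, and 7 of 22 UGT genes rose with 0 falling. These were Ugt35E2 (0.65 ± 0.13), Ugt35C1 (0.59 ± 0.13), Ugt35B1 (0.51 ± 0.09), Ugt302K1 (0.48 ± 0.14), Ugt36D1 (0.47 ± 0.07), Ugt301D1 (0.42 ± 0.09) and Ugt302C1 (0.31 ± 0.08), with adjusted p from 3.34e-05 to 0.0213. Ugt35B1 was above every CS library in group housing, at 334 to 354 CPM against 142 to 151 in CS, whereas in single housing Or67d (251 to 334 CPM) and CS (247 to 367 CPM) overlapped. The exons of GstE1 overlap those of GstE10 on the other strand. GstO3 was lower, at 3.02 to 6.11 CPM in CS and 1.55 to 2.36 in Or67d with no overlap (-0.62 ± 0.15, adjusted p = 0.00724), and GstT4 was lower by -0.80 ± 0.25 (adjusted p = 0.0429). The GstT4 call ended in the notAC libraries and without any of 7 of the 12 libraries (adjusted p up to 0.106). Ugt302C1 lost its call without CS SH replicate 3 (adjusted p = 0.0586), and Ugt302K1 without CS SH replicate 1 or Or67d GH replicate 3 (adjusted p up to 0.0693). No Or67d library was marked AC, and without the AC term 12 of 54 genes were called, 9 of them higher, against 9.52% of all genes. The calls of GstE1, GstS1, Ugt301D1 and Ugt302C1 then ended (adjusted p = 0.102, 0.0765, 0.0897 and 0.655 in turn).

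Of the pathway lists, the antioxidant genes had the most calls in Or67d. Of 9 antioxidant genes 4 rose and 0 fell: Prx2540-2 (1.17), Prx2540-1 (0.53), Cat (0.38) and Sod3 (0.36). Men, the NADP-dependent malic enzyme, was higher (0.32), and Keap1, whose protein holds CncC inactive, was lower (-0.19, adjusted p = 0.003), while cnc, maf-S, Hr96, the other 8 genes for glutathione and NADPH and the 7 UDP-sugar genes were not called. The barrier pump gene Mdr65, the only one called of 5 pumps, was higher (0.80, adjusted p = 1.02e-07), and so was the barrier-glia transporter Tret1-1 (0.39), but the other 5 barrier-glia markers were not called. Summed barrier-glia markers were 467 to 589 CPM in Or67d and 391 to 523 in CS, and summed haemocyte markers 329 to 371 and 241 to 334. The haemocyte marker Hml (0.42), the glial markers nrv2 (0.39) and axo (0.41) and the fat body markers Lsp2 (1.52) and fit (1.78) were also higher. Their part in the changes was not tested.

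**Figure D3:**
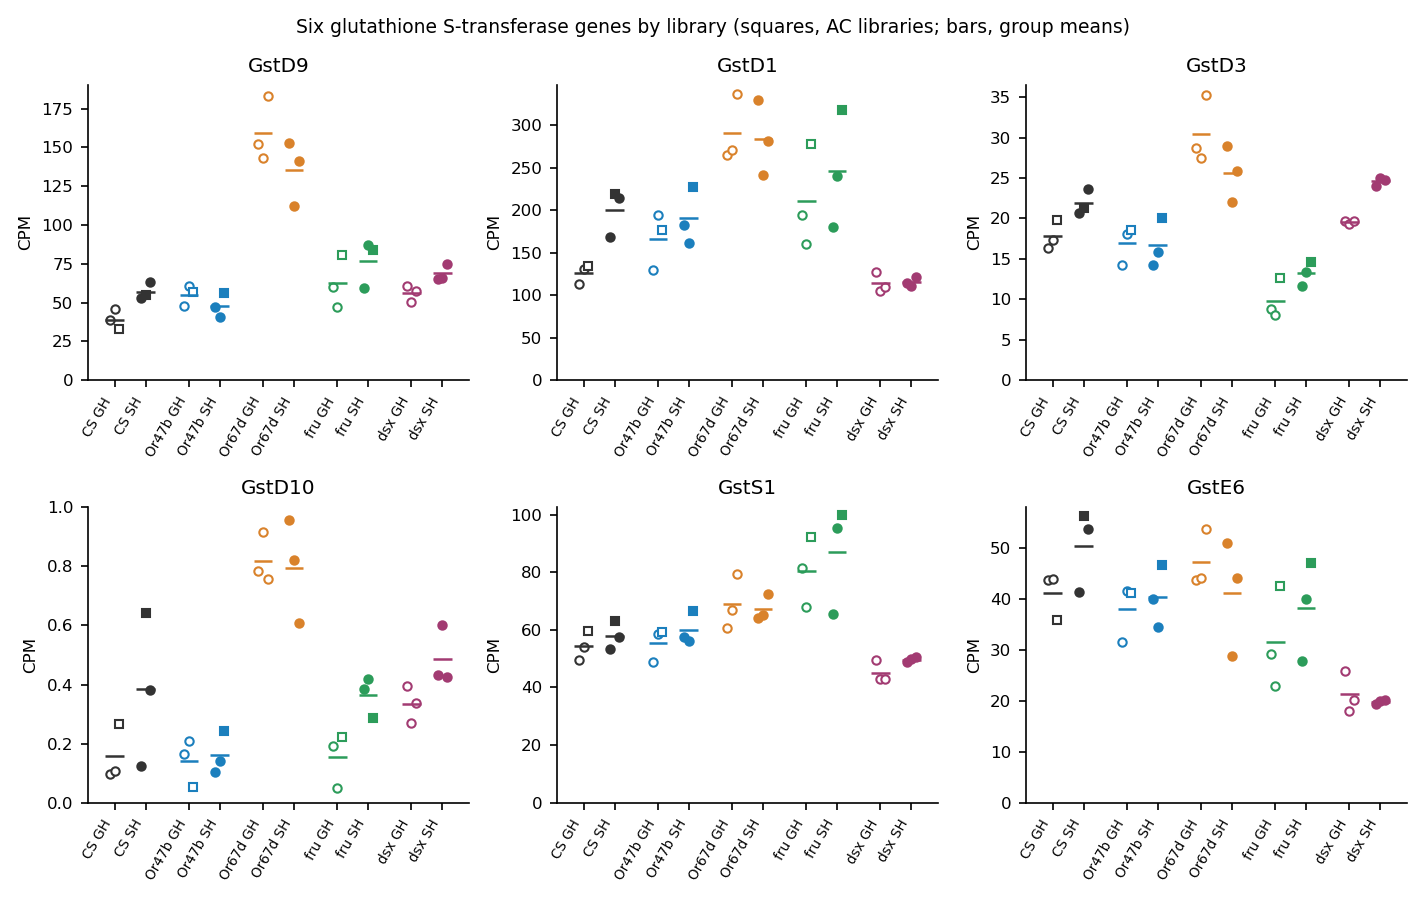
Levels in CPM (axes from 0) of 6 GST genes in all 30 libraries; open symbols are GH, filled symbols SH, squares AC libraries, and bars group means. The Or67d libraries of GstD9 (112 to 183 CPM) lie above all others, GstD3 is lowest in fru (8.06 to 14.6 CPM), and GstE6 is lowest in dsx (18.1 to 25.9 CPM).

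The fru mutant differed from CS in 25 of 54 genes, 21 higher and 4 lower, or 46.3% against 27.7% of all genes, 14% higher and 13.6% lower. Genes of several classes were higher by less than 2-fold, among them GstS1, GstT1, Ugt302C1 and Ugt302K1, and Ugt35E2 was 2.01-fold higher. The low genes GstD5 and Ugt302E1 had larger changes that rest on few counts. GstD5 had 0 to 13 counts per CS library and 10 to 19 per fru library, and Ugt302E1 had 1 to 4 and 3 to 10. GstD3 went the other way and fell below every CS library, while GstD1 and GstD9, in the same cluster, were higher.

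GstS1 measured 49.5, 54.2, 59.7, 53.3, 62.9 and 57.6 CPM in CS and 81.4, 68, 92.3, 65.5, 95.5 and 99.9 in fru, all above (0.57 ± 0.08, adjusted p = 5.31e-06). Ugt35E2 was at 1.27 to 3.24 CPM in CS and 3.44 to 4.7 in fru, all above (1.00 ± 0.13, adjusted p = 1.31e-06). Ugt302K1 was at 3.04 to 6.26 CPM in CS and 7.42 to 8.53 in fru (0.75 ± 0.13, adjusted p = 0.000131), and GstT1 at 14.9 to 19.3 and 19.6 to 23 (0.33 ± 0.06, adjusted p = 0.000283). In each of these 4 genes the fru libraries lay above all CS libraries. GstD3 measured 16.3, 17.4, 19.8, 20.7, 21.3 and 23.7 CPM in CS and 8.81, 8.06, 12.6, 11.7, 13.4 and 14.6 in fru (-0.81 ± 0.08, adjusted p = 9.7e-08). The fru libraries were all below CS, and the lowest library of any other line, of Or47b, stood at 14.3 CPM, just inside the upper edge of the fru range.

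Other calls with overlapping groups were GstD1 (0.49 ± 0.11), GstD9 (0.54 ± 0.12), GstE1 (0.51 ± 0.11), GstE8 (0.71 ± 0.20), GstT2 (0.35 ± 0.09), GstZ1 (0.49 ± 0.14), Ugt302C1 (0.68 ± 0.08), Ugt35B1 (0.34 ± 0.09) and Ugt36D1 (0.30 ± 0.07), each kept with any 1 library left out. The Ugt35B1 value averages unlike housings, with 296 ± 19.4 CPM in fru GH against 147 ± 4.85 in CS GH, but 246 ± 34.1 in fru SH against 313 ± 60.8 in CS SH (SD, n = 3). The calls of GstD5 (1.50), GstE3 (0.49), GstE9 (0.62), GstE13 (0.22), Ugt302E1 (1.31), Ugt35A1 (0.32), Ugt37D1 (0.27) and Ugt50B3 (0.77) on the higher side each ended without at least 2 of the 12 libraries (adjusted p up to 0.153). So did those of GstE6 (-0.42), GstT3 (-0.38) and Ugt36E1 (-0.51) on the lower side. GstE9, GstT2 and Ugt36E1 overlap exons of another gene on the opposite strand.

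The number of calls in fru changed with the libraries and terms used. Each fru group holds 1 AC library, which was its highest for GstD1, at 278 and 317 CPM against 160 to 240 in the others. Among notAC libraries 13 of 55 genes were called, 9 higher and 4 lower, and 10 of the 25 kept their call. The changes of GstD1 and GstD9 were then 0.34 each (adjusted p = 0.0929 and 0.0859). The calls of GstE1, GstE8, GstT2, GstZ1 and Ugt35B1 also ended there (adjusted p from 0.0699 to 0.185). The count was 14 without the AC term and 14 of 49 tested in a fit of CS and fru alone. Leaving out the AC library of fru GH or of fru SH gave 22 and 20. Of all genes, 27.7% were called in the main fit and 16.7% in notAC libraries. Without the AC term 17.1% of all genes were called, and in CS and fru alone 18.3%. The notAC fit and the fit of CS and fru alone also used fewer libraries, and what this took from the counts was not tested. GstD3, GstS1, GstT1, Ugt302C1, Ugt302K1, Ugt35E2 and Ugt36D1 kept their calls in every alternative.

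Markers of several cell types differed between fru and CS. Of 7 barrier-glia markers 5 were higher and 0 lower: Tret1-1 (0.66), loco (0.49), Gli (0.40), Mdr65 (0.38) and moody (0.32). Their summed level was 494 to 643 CPM in fru and 391 to 523 in CS. Of 4 haemocyte markers tested, NimC1 (1.48), Hml (1.27) and eater (0.93) were higher and Pxn (-0.21) lower. Muscle and antennal markers were lower in 3 of 5 each, the photoreceptor genes ninaC (0.58) and Arr2 (0.53) and the fat body gene fit (2.86) were higher, and of 7 other glial markers alrm (-0.66) and Eaat1 (-0.34) were lower and wrapper (0.24) higher. Summed fat body markers varied widely, at 21.6 to 123 CPM in fru GH and 84 to 3845 in fru SH. Their part in the changes was not tested. Of 9 genes for glutathione synthesis and NADPH supply, the glutathione synthetase genes Gss1 (0.88) and Gss2 (0.71), Idh (0.31) and Men (0.19) were higher, and Ggt-1 (-0.69), a glutathione-degrading transpeptidase, and Zw (-0.58) were lower. UGP (0.46), whose enzyme makes UDP-glucose, and Galk (0.24) were higher of 7 UDP-sugar genes. Of 9 antioxidant genes, Prx2540-1 (0.78), PHGPx (0.70) and Sod3 (0.50) were higher and Sod2 (-0.21) lower, and of 5 pumps Mdr50 (2.47), Mdr49 (0.53) and Mdr65 (0.38) were higher. None of the 4 regulators was called.

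In the dsx mutant 35 of 54 genes were called, 26 lower and 9 higher. This was the highest count of the 4 mutants, and 64.8% of the genes tested, against 48.7% of all genes, 20.7% higher and 28% lower. With the mitochondrial share as covariate the count was 19 in dsx and 23 in fru, against 24.7% and 27.1% of all genes. Every dsx library had a higher mitochondrial share than every CS library, so this covariate and the dsx genotype cannot be fully told apart. All 5 tested Ugt35 genes and 7 of 14 GstE genes fell with 0 rising. Ugt302E1, nearly silent in every other group, was on in all 6 dsx libraries. Its divergent neighbour Ugt302K1, which starts 776 bases away on the other strand, fell 5-fold.

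Ugt302E1 had 1, 2, 3, 3, 4 and 1 counts in the 6 CS libraries and at most 10 in any Or47b, Or67d or fru library. In the dsx libraries it had 331, 130 and 158 counts in GH and 135, 91 and 111 in SH, which is 2.26 to 3.12 CPM. The change was 6.23 ± 0.39 (adjusted p = 1.61e-11), and its size rests on the few CS counts. Ugt302K1 measured 3.8, 4.68, 3.04, 5.69, 6.26 and 5.9 CPM in CS and 0.762, 1.2, 0.821, 0.826, 0.9 and 1.24 in dsx, all below (-2.32 ± 0.15, adjusted p = 1.5e-11). Ugt35C1 measured 5.71, 4.43 and 4.8 CPM in dsx GH and 4.35, 4.27 and 4.45 in dsx SH, against 16 to 29 in CS and 14.6 or more in every library of the other lines (-2.28 ± 0.14, adjusted p = 5.65e-12). These 3 genes kept their calls in every alternative, including a fit with the mitochondrial share as covariate.

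Along the 3R group of Ugt genes, 7 of the 8 tested genes were called. Ugt302E1 and, by 0.29 ± 0.08, Ugt302C1 were higher, and Ugt302K1, Ugt35E1, Ugt35E2, Ugt35B1 and Ugt35A1 were lower. For Ugt302C1 the dsx libraries (11.8 to 13.3 CPM) lay inside the CS range (9.52 to 17.7). Its call ended without the AC term (adjusted p = 0.524) and with the mitochondrial share as covariate (adjusted p = 0.27). Ugt35B1 was at 142 to 367 CPM in CS and 120 to 161 in dsx, overlapping through the CS GH libraries (-0.65 ± 0.09, adjusted p = 4.01e-06). Ugt35A1 fell by 0.69 ± 0.12 and Ugt35E2 by 0.35 ± 0.13, a call that ended without any of 6 of the 12 libraries (adjusted p up to 0.102). Ugt35E1 had 2 counts or fewer in each dsx library and 1 to 13 in CS (-2.74 ± 0.70, adjusted p = 0.00257).

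**Figure D4:**
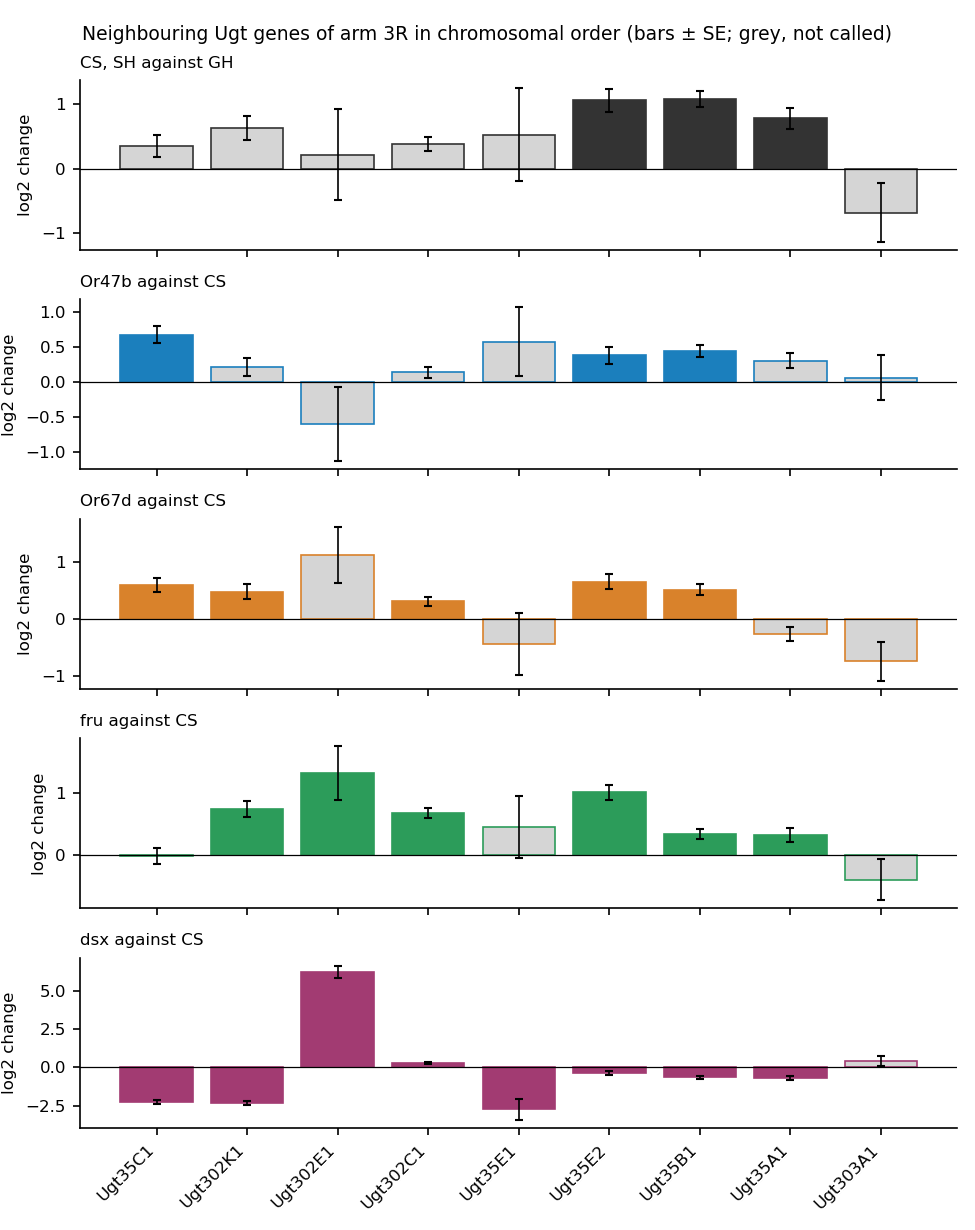
log2 changes ± SE of Ugt35C1 and the 8 tested genes of the Ugt group on 3R in chromosomal order, for CS housing and for each mutant against CS; grey bars were not called, and the y-axis range differs between panels. In dsx, Ugt302E1 (6.23) stands beside its neighbour Ugt302K1 (-2.32), and in CS housing the called genes are Ugt35E2, Ugt35B1 and Ugt35A1.

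The GstE genes that fell in dsx were GstE6, GstE7, GstE9, GstE11, GstE12, GstE14 and GstE5. GstE6 measured 43.7, 44, 35.9, 41.4, 56.3 and 53.8 CPM in CS and 25.9, 18.1, 20.1, 19.4, 20 and 20.1 in dsx (-1.06 ± 0.15, adjusted p = 4.1e-06). Its neighbour GstE7 was at 5.71 to 10.9 CPM in CS and 3.03 to 4.54 in dsx (-1.22 ± 0.17). The abundant GstE12, whose exons overlap CG3894 on the other strand, was at 119 to 176 and 83.9 to 91.7 CPM (-0.54 ± 0.11). In all 3 genes every dsx library was below every CS library. GstE14, known as noppera-bo and needed for ecdysteroid synthesis, was at 0.352 to 0.751 CPM in CS and 0.129 to 0.295 in dsx, also without overlap (-1.30 ± 0.25, adjusted p = 0.000172). GstE11 (-1.05 ± 0.18) and GstE9 (-0.85 ± 0.23) had no overlap either, while GstE5 (-1.15 ± 0.47) did and lost its call without any of 10 of the 12 libraries.

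The delta class was split in dsx. GstD9 (0.44 ± 0.13), GstD10 (0.97 ± 0.36) and GstD3 (0.24 ± 0.09) were higher, and GstD8 (-2.17 ± 0.54), GstD11 (-0.61 ± 0.12) and GstD1 (-0.35 ± 0.12) were lower. GstD9 was at 50.7 to 75.2 CPM in dsx, overlapping CS, and GstD1 at 105 to 127 CPM, at the lower end of CS. The calls of GstD1, GstD3 and GstD10 ended without 2, 2 and 5 of the 12 libraries in turn (adjusted p up to 0.102). With the mitochondrial share as covariate GstD9, GstD10, GstD3 and GstD1 were not called (adjusted p from 0.136 to 0.2), while GstD8 and GstD11 were. The changes of GstD9, GstD10, GstD3 and GstD1 were then 0.326 ± 0.177, 0.914 ± 0.511, 0.256 ± 0.124 and -0.334 ± 0.165. Their errors were larger than in the main fit, and this covariate cannot be fully told apart from the dsx genotype. Without the AC term GstD10 and GstD3 were not called (adjusted p = 0.107 and 0.25). GstD8 had 1 to 8 counts in each dsx library and 5 to 26 in CS.

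Among the rest, Ugt37A3 (2.26 ± 0.47) and Ugt50B3 (1.90 ± 0.27) were higher. Ugt37A3 was at 0.0721 to 0.708 CPM in CS and 0.644 to 1.16 in dsx, and Ugt50B3 at 0.216 to 0.987 and 0.925 to 1.62, where only the AC library CS SH replicate 2 overlapped dsx. Ugt316A1 (0.30 ± 0.09, at 34.5 CPM or more in dsx and at most 31.5 in CS) and GstZ2 (0.25 ± 0.06) were also higher. GstZ2 overlapped, at 20 to 27.2 CPM in CS and 25.6 to 31.3 in dsx. With the mitochondrial share as covariate the calls of Ugt316A1 and GstZ2 ended (adjusted p = 0.0761 and 0.3). Ugt37D1 (-0.59 ± 0.09), Ugt49C1 (-0.39 ± 0.10), Ugt36A1 (-0.74 ± 0.23) and GstO3 (-0.47 ± 0.15) were lower with no overlap of the groups. However, GstO3 lost its call without CS GH replicate 2 (adjusted p = 0.0751), and exons of Ugt36A1 overlap CG15418 on the other strand. The Ugt36A1 call ended with the mitochondrial share as covariate (adjusted p = 0.101) and in a fit of CS and dsx alone (adjusted p = 0.0945). Ugt317A1 (-0.30), Ugt36E1 (-0.42), Ugt37B1 (-0.68), GstT1 (-0.19), GstT3 (-0.46) and GstT4 (-0.78) were lower with overlap. Of these, all but GstT4 lost their call without at least 1 library. The GstT4 call ended in the notAC libraries (-0.415, adjusted p = 0.11) and with the mitochondrial share as covariate (adjusted p = 0.156). The AC libraries of CS had 17.9 and 15.6 CPM of GstT4, and the dsx libraries 1.22 to 2.47.

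Calls among pathway genes went in either direction in dsx. Of 9 antioxidant genes 7 were lower, with Cat at -0.75, Sod1 at -0.54, Prx5 at -0.52, PHGPx at -0.41, Sod3 at -0.40, Prx3 at -0.33 and Sod2 at -0.26, and Prx2540-1 was higher (0.76). Zw (-0.99), Pgd (-0.80), Ggt-1 (-0.67), Idh (-0.39) and Gclm (-0.31) were lower, whereas Gss1 (0.61), Gss2 (0.54) and Gclc (0.37), for glutathione synthesis itself, were higher. Among the UDP-sugar genes, Galk (-0.42) and Galt (-0.23) were lower. Of 5 pumps 4 were higher: Mdr50 (1.71), Mdr65 (0.68), MRP (0.50) and Mrp4 (0.35). maf-S was lower (-0.48) and cnc higher (0.41), and Keap1 and Hr96 were not called.

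The dsx libraries also differed from CS in general measures. The mitochondrial share was 12.3% to 14% against 2.95% to 10.1% in CS, and of the 19 genes called with it as covariate 3 were higher. Summed neuronal markers were 9010 to 9919 CPM against 6216 to 8852, and summed fat body markers 813 to 1477 against 66.1 to 692. Of 7 barrier-glia markers 3 were higher (Mdr65, Gli at 0.51 and Tret1-1 at 0.44) and loco was lower (-0.32), with sums of 494 to 539 CPM against 391 to 523. Of 7 other glial markers 4 were lower (repo at -0.36) and Eaat1 was higher (0.32), 3 of 4 haemocyte markers were higher (NimC1 at 0.95), 4 of 5 muscle and 3 of 5 antennal markers were lower, and the photoreceptor genes ninaE (-1.78) and Arr1 (-0.68) were lower. Their part in the changes was not tested. Over all genes 2332 were higher and 3154 lower, and with the authors' normalized values 2824 and 2353, when 31 of these enzyme genes were called and 10 were higher.

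The 4 mutants share the CS libraries as controls, so their changes are set side by side only. Ugt35B1 was 0.44 in Or47b, 0.51 in Or67d, 0.34 in fru and -0.65 in dsx, and it was called in each. These are means over both housings: in group housing all Or47b, Or67d and fru libraries (208 CPM or more) were above CS (142 to 151), and in single housing Or47b (312 to 345), Or67d (251 to 334) and fru (211 to 280) overlapped CS (247 to 367). Ugt35E2 was 0.38, 0.65, 1.00 and -0.35. Over the 10 groups, Ugt35B1 ranged from 124 ± 2.94 CPM in dsx GH to 341 ± 10.8 in Or67d GH (SD, n = 3), with Or47b SH at 330 ± 16.5 overlapping the latter. CS GH at 147 ± 4.85 CPM lay between dsx GH and dsx SH (160 ± 1.1), and CS SH at 313 ± 60.8 lay among the Or47b and Or67d groups. The level summed over all 70 genes was lowest in dsx GH at 898 ± 35.8 CPM and highest in Or67d GH at 1650 ± 154, and the Or67d, fru and CS SH libraries overlapped.

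**Figure D5:**
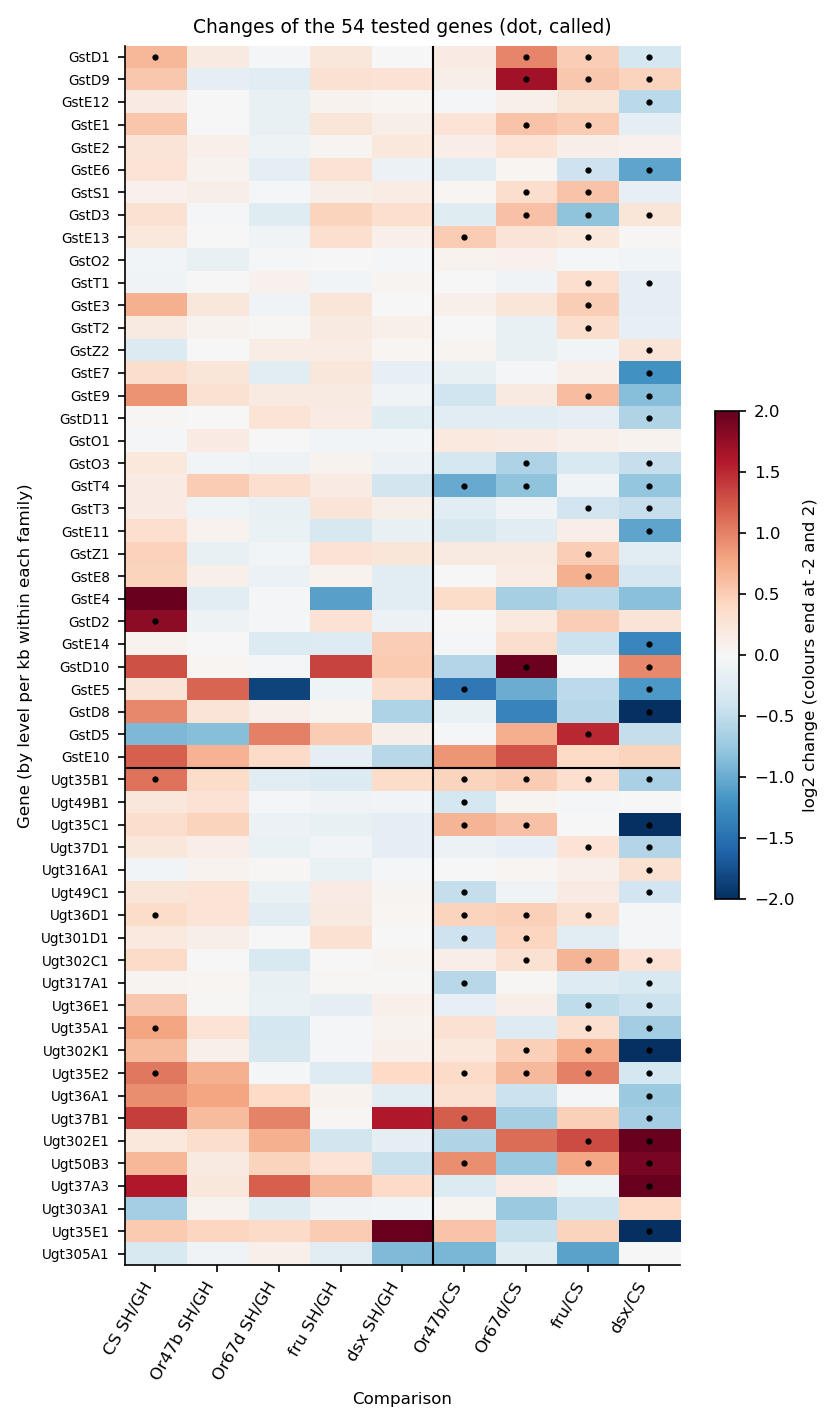
log2 changes of the 54 tested genes (GST above, UGT below, each by level per kb) for housing in each genotype and for each mutant against CS; colours end at -2 and 2 and dots mark called changes. Dots for housing appear in the CS column only, 6 of them, and the dsx column holds 35.

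The AC term itself was called for 28 of 54 genes, 27 of them higher in AC libraries, against 54.7% of all genes, 26.6% higher and 28.1% lower. GstT4 changed most (1.95): the CS libraries marked AC were at 17.9 CPM (GH) and 15.6 CPM (SH) against 1.97 to 3.4 in the other CS libraries, and in Or47b and fru each AC library was also the highest of its group. Ugt302E1 (1.48), Ugt37B1 (1.37), GstE5 (1.33) and GstE9 (1.26) followed. GstE4 was at 7.38 CPM in CS SH replicate 2 and at most 0.868 in the other 29 libraries, and GstE9 (22.2 CPM), Ugt36A1 (9.83), Ugt36E1 (11.5) and GstT3 (7.38) were also highest among CS libraries there.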

How the data were processed

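RNA-seq libraries of polyadenylated RNA from male brains were made with a stranded kit and sequenced as paired-end reads, per the labels' protocols. The authors' deposited table gives estimated counts per feature, not scaled between libraries. Of 2100 values of the genes reported here, 4 were not whole (tolerance 0.01), so rounding changed little. STAR, Salmon and DESeq2 with build BDGP6 were used, per the submitters' processing notes; versions, annotation and strand of counting are not given in the sources used here. A second deposited table holds scaled signal values (normalized counts by its name) with no stated method, and it was used only in an alternative. Another table gives the AC or notAC mark.

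Estimated counts of 17895 genes were rounded and fitted in R 4.3.3 with edgeR 4.0.16: filterByExpr (11269 genes), TMM scaling, 1 quasi-likelihood fit of 30 libraries with terms for the 10 groups and for AC, and F tests adjusted by Benjamini-Hochberg within each comparison. Mutants were compared with CS over the mean of both housings. Features that are not genes (0.6% to 1.38% of counts) were left out. Levels are CPM on TMM-scaled gene totals; lengths, positions and overlaps come from Ensembl release 115. The script was tested on simulated counts. Alternatives were RLE scaling, DESeq2 1.42.0, no filter, no AC term, notAC libraries, only the groups compared, a replicate block, the mitochondrial share as covariate (added after seeing the data), limma 3.58.1 on log2(deposited signal + 1), and each library left out.

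The genes, the pathway and marker lists and the tests were chosen with earlier results of these data known. Genes were named with values if called in any comparison, if among the 10 highest per length, or if highest of their class or family; called genes of the pathway lists were named too, except that results of 1 UDP-sugar gene are not reported here. The list symbols Trxr1, Trxr2, Mrp5, Prx2, Prx4 and Prx6a had no entry under these names and were not analysed here. No pair of libraries was identical.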

Additional observations from a re-analysis of the deposited data

Results flagged for a closer look

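A difference between genotypes in the response to housing, tested as an interaction in edgeR's quasi-likelihood fit, was found for 3 neighbouring Ugt35 genes. The change of Ugt35B1 with single housing was lower than in CS by a log2 difference of -1.35 in fru and of -1.31 in Or67d, where CS rose in 3 of 3 libraries above all group-housed ones. The difference was -1.32 for Ugt35E2 in fru and -1.13 for Ugt35A1 in Or67d. The group-housed levels of Ugt35B1 differ as well, at 147 CPM in CS, 341 in Or67d and 296 in fru.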

How the results depend on the processing

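Of 101 calls of a gene in a comparison, 0 changed sign in any alternative, 42 were kept in all of them and 67 with every library left out. Calls lost were 5 with RLE scaling, 4 with DESeq2, 10 without the filter, 31 without the AC term, 34 in the notAC libraries, 29 of 95 in fits of only the groups compared, 10 with limma on the deposited values and 26 with the mitochondrial share as covariate. The replicate block lost 7, and the correlations of same-numbered libraries were mixed (-0.22 to 0.52), so the numbers were not taken as pairs; under it CS housing lost Ugt36D1 (adjusted p = 0.0514) and gained Ugt37B1 (adjusted p = 0.0428), for a count of 6. Counts that moved by more than 1.5 times were, for CS housing (6), 15 with DESeq2, 2 without the AC term, 1 in notAC libraries, 0 in CS alone and 3 with the mitochondrial share; for Or47b and fru housing (0), 1 with DESeq2, and for fru also 1 with limma; for dsx housing (0), 2 in dsx alone; for Or47b against CS (13), 7 without the AC term; for fru against CS (25), 14 without it, 13 in notAC libraries and 14 in the groups compared; for dsx against CS (35), 19 with the mitochondrial share. Interactions (2) became in Or67d 1 with DESeq2, without the filter, without the AC term, in notAC libraries, in the groups compared and with the mitochondrial share, and 5 with limma; in fru 4 with DESeq2, 1 in notAC libraries and 0 in the groups compared; from 0, Or47b and dsx had 1 with DESeq2 and dsx 3 in the groups compared. Shares called over all genes moved too. For CS housing (1.86%) they were 5.56% with DESeq2, 0.408% without the AC term and 0.56% in notAC libraries. For Or47b against CS (13.4%) the share was 6.36% without the AC term. For fru against CS (27.7%) it was 17.1%, 16.7% and 18.3% in the order given. For dsx against CS (48.7%) it was 24.7% with the mitochondrial share. The causes were not tested. With each library left out the counts ranged from 2 to 9 for CS housing, 0 to 0 for the other genotypes' housing, 3 to 4 for average housing, 11 to 14 for Or47b, 13 to 17 for Or67d, 19 to 23 for fru and 26 to 34 for dsx against CS, and 0 to 0 (Or47b, dsx), 1 to 7 (Or67d) and 1 to 2 (fru) for the interactions. The Or67d interaction count was 7 without Or67d SH replicate 1, 4 without Or67d GH replicate 1, and 1 without CS GH replicate 1, CS SH replicate 1, 2 or 3, Or67d GH replicate 2 or 3, or Or67d SH replicate 2 or 3. The fru interaction count was 1 without CS GH replicate 1, CS SH replicate 2 or 3, or fru SH replicate 1. Depth limits the 31 genes averaging under 1 CPM; the 16 untested genes had 3 to 128 counts over 30 libraries.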
